A study of Mus musculus with 11 samples.

Results

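The genes described here are 10 of the 27179 genes counted in each library: the p53 family (*Trp53*, *Trp63* and *Trp73*) and 7 well known targets of p53 (*Mdm2*, *Ccng1*, *Cdkn1a*, *Bbc3*, *Bax*, *Phlda3* and *Eda2r*). They were listed by name because "p53" appears in the name of a MaSC/basal library that is labelled wild type. RNA-seq read counts were obtained for 11 libraries from mouse mammary epithelial cells. Libraries were made from basal cells enriched for mammary stem cells (MaSC/basal, CD24+CD29hi, n = 3), CD24+CD29loCD61+ luminal progenitor-enriched cells (LP, n = 3) and CD24+CD29loCD61- mature luminal-enriched cells (ML, n = 3), all sorted from the glands of wild type FVB/N virgin females aged 8 weeks. A further library came from mammosphere cells grown from MaSC/basal cells in non-adherent culture (n = 1, same strain, sex, age and genotype), and another from the established line CommaD-βGeo (Comma Dβ, n = 1), which is labelled wild type, Balb/c and of mid-pregnancy origin. The labels assign each library to batch 1, 2 or 3, and batch 1 used an earlier version of the library kit. The MaSC/basal library named for p53 is replicate 1, and it is the only MaSC/basal library of batch 1.

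p53, the product of *Trp53*, is a transcription factor that is held at a low level by the ubiquitin ligase Mdm2 and stabilised after DNA damage and other stresses. It then raises the transcription of genes that arrest the cell cycle, restrain p53 itself, or promote apoptosis, so target transcripts are often read as a measure of its activity, whereas the *Trp53* transcript is not. Its relatives p63 and p73 bind similar DNA sequences. In the mammary gland p63 is known as a nuclear marker of basal and myoepithelial cells, and the parental line of Comma Dβ has been described as carrying mutant p53. Read counts per gene hold no base sequence, so neither the p53 genotype of any library nor the isoforms of the family could be read from them.

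All 10 genes are in the RefSeq annotation of GRCm38, the build to which the reads had been aligned. RefSeq start windows (250 bases before to 50 bases after a start) were present for 9 of the 10 genes, 13 windows in all, and *Trp63* had none. The windows were searched for the p53 response element, which is built from 2 copies of a 10-base element that reads alike on both strands, placed here without a gap. A match of the 2 copies had to keep the fixed C and the fixed G of each copy, so bases off the consensus were allowed only elsewhere. An element with at most 1 of its 20 bases off the consensus was found in 22 of 32851 windows of the same length (0.0670%). Among them were the window of the upstream start of *Cdkn1a* (chr17:29090729-29091028, plus strand) and that of *Ccng1* (chr11:40755237-40755536, minus strand). With at most 2 bases off the element was found in 107 windows (0.326%), among them the internal start of *Trp73* (chr4:154097124-154097423, minus strand). A single 10-base element without a base off was far more common, in 8.36% of all windows and in a window of 5 of the genes (*Trp53*, *Mdm2*, *Ccng1*, *Cdkn1a* and *Bax*). The 3 windows are printed 5′ to 3′ with the element in capitals because they hold the closest matches under this rule among the 9 genes with windows. A match describes the letters only and does not show that the site was bound.
Cdkn1a: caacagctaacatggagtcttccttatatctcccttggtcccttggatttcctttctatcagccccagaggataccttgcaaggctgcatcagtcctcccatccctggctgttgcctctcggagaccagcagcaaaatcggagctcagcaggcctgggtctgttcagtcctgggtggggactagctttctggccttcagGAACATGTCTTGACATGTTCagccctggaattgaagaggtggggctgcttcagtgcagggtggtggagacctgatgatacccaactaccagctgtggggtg
Ccng1: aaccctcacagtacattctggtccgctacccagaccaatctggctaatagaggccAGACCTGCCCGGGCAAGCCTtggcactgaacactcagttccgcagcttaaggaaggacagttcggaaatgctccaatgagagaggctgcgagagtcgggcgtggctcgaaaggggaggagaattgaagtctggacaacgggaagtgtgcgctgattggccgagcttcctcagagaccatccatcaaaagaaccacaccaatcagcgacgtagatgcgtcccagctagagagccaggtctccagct
Trp73: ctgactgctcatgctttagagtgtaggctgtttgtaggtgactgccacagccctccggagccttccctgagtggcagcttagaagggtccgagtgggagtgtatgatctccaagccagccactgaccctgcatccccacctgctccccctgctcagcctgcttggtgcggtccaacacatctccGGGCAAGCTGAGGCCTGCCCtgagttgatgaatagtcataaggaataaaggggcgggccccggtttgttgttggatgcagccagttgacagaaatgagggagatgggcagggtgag
The element started 51 bases before the upstream start of *Cdkn1a*, 195 bases before that of *Ccng1* and 66 bases before the internal start of *Trp73*. The window of the downstream start of *Cdkn1a* (chr17:29093519-29093818) held no 10-base element without a base off. Its closest 20-base match that kept each fixed C and G was 7 bases off.

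Library totals ranged from 19958838 to 75795034 assigned reads. Levels are given as CPM, the read count scaled to library size and to the trimmed mean of M values (TMM). For some comparisons between genes they are also given as RPKM, which divides by the deposited length of each gene. All 10 genes were among the 15422 genes that passed the filter on low counts. The sorted populations carried their markers: 6 basal markers summed to 15984 to 22579 CPM in MaSC/basal and to at most 347 CPM in LP and ML, and 5 luminal markers summed to 12758 to 16391 CPM in LP and ML and to at most 1691 CPM in MaSC/basal. Of markers of other cells, 5 fibroblast markers summed to 406 to 536 CPM in MaSC/basal, 187 to 768 CPM in LP (highest in replicate 2) and 352 to 641 CPM in ML, so they differed between replicates. The 4 endothelial markers summed to 40.4 to 82.8 CPM in MaSC/basal and to at most 34.7 CPM in LP and ML, 3 adipocyte markers to 25.9 to 67.5 CPM in MaSC/basal and to at most 36.2 CPM in LP and ML, and 5 leukocyte markers to at most 9.45 CPM in any sorted library. The 12 genes induced by tissue dissociation summed to 7054 to 20376 CPM in MaSC/basal, beside 14409 to 32057 CPM in LP and 15593 to 24929 CPM in ML. Their part in the differences below was not tested. In these bulk samples fewer cells of a type and less RNA per cell cannot be told apart. ML replicate 3 carried more basal transcript (347 CPM) than ML replicates 1 and 2 (71.0 and 101 CPM), and it is named below where it decides a value. Exons of *Bax*, *Cdkn1a* and *Trp73* share 12.2%, 7.68% and 5.06% of their bases with another annotated gene, and since use of strand in counting is not stated, reads from those stretches cannot be assigned with certainty.

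**Figure D1:**
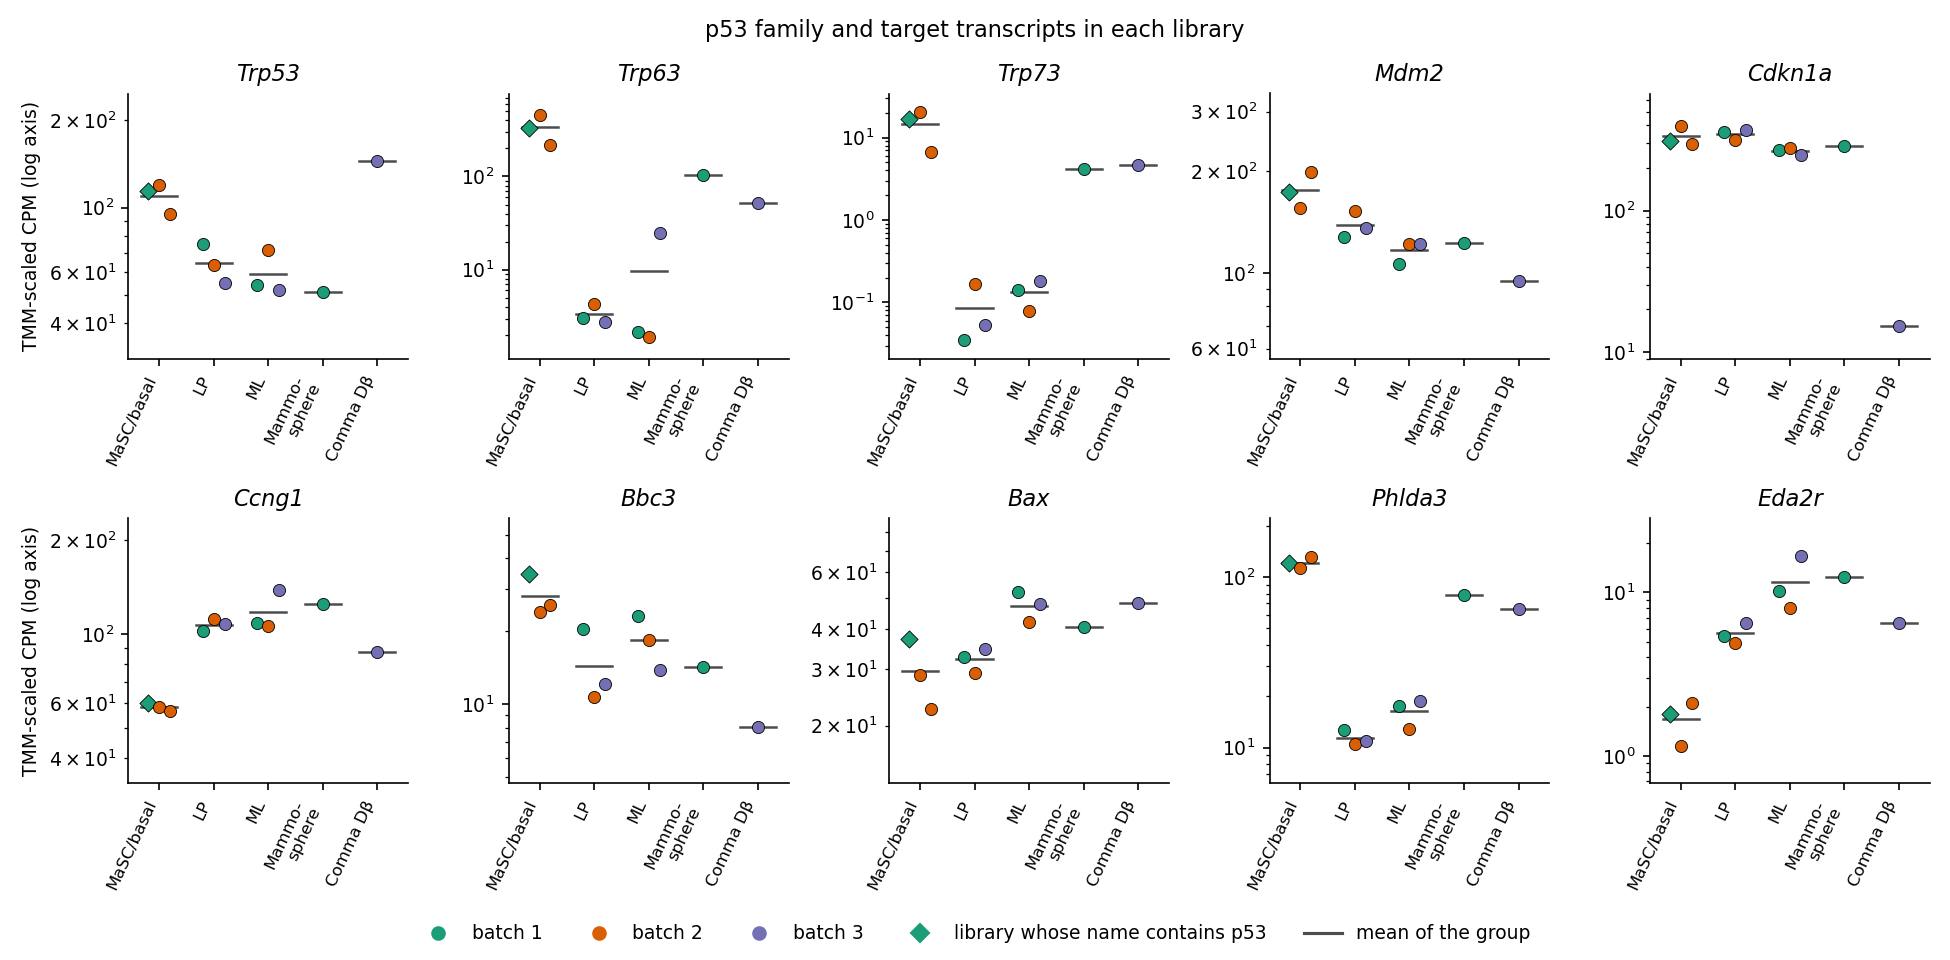
TMM-scaled CPM on a log axis for each of the 10 genes in each of the 11 libraries, coloured by batch, with the mean of each group as a line and the library whose name contains p53 as a diamond. The diamond lies among the other MaSC/basal points for *Trp53* (114 CPM, against 119.6 and 95.2 CPM), and the Comma Dβ point for *Cdkn1a* (15.2 CPM) lies under every other library.

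The family members were highest in MaSC/basal cells of the 3 sorted populations. *Trp53* (Entrez 22059, chr11:69580348-69591873) was counted at 114, 119.6 and 95.2 CPM in MaSC/basal replicates 1 to 3, at 75.2, 63.6 and 55.0 CPM in LP, and at 54.1, 71.6 and 52.1 CPM in ML. Every MaSC/basal library was above every luminal library, whereas LP and ML libraries overlapped. The means were 109.6 ± 12.8 CPM for MaSC/basal, 64.6 ± 10.1 CPM for LP and 59.3 ± 10.8 CPM for ML (SD, n = 3 each). The log2 fold change was 0.76 over LP (SE 0.17, edgeR adjusted p = 0.00331) and 0.89 over ML (SE 0.17, edgeR adjusted p = 0.00125). LP and ML differed by 0.12 (SE 0.17, edgeR adjusted p = 0.611), which did not pass the test. Across all samples the order was Comma Dβ (145 CPM), MaSC/basal, LP, ML and mammosphere (51.4 CPM), with LP, ML and mammosphere not separated beyond the spread of replicates.

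*Trp63* (Entrez 22061, chr16:25683763-25892088), the basal lineage factor, was counted at 333, 456 and 219.7 CPM in MaSC/basal cells. In LP it was counted at 3.03, 4.27 and 2.78 CPM, and in ML at 2.18, 1.89 and 24.8 CPM. The MaSC/basal libraries were thus all far above the luminal ones, and within the luminal libraries ML replicate 3, the library with more basal transcript, stood above the other 5. Whether that basal transcript bears on its *Trp63* level was not tested. The log2 fold change over LP was 6.62 (SE 1.02, edgeR adjusted p = 3.5e-04) and that over ML was 5.18 (SE 0.95, edgeR adjusted p = 9.6e-04). Without ML replicate 3 the latter was 7.37. Between LP and ML the log2 fold change of -1.44 (SE 0.87, edgeR adjusted p = 0.233) did not pass, and it turned to 0.75 (edgeR adjusted p = 0.124) without ML replicate 3, so no order of LP and ML is given.

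*Trp73* (Entrez 22062, chr4:154056249-154139875) was the lowest of the family in each sorted population. It was counted at 16.9, 20.2 and 6.63 CPM in MaSC/basal cells, which rests on 994, 1012 and 352 reads. In LP 1, 9 and 1 reads were counted and in ML 5, 6 and 4 reads, so the luminal libraries were all at or under 0.182 CPM, and LP replicates 1 and 3 were under the level of 3 reads. The pooled CPM of MaSC/basal was 133-fold that of LP (95% exact interval 74.1 to 266) and 128-fold that of ML (95% exact interval 77.7 to 229.9), where the intervals cover counting error only. Of the 11 LP reads 9 were from LP replicate 2, and the fitted log2 fold change over LP was 7.09 with that library and 8.30 without it. Both differences passed the test (edgeR adjusted p = 7.4e-06 over LP and 6.7e-06 over ML), and LP and ML could not be separated (edgeR adjusted p = 0.876). Per length, MaSC/basal cells held *Trp53* at 58.7 ± 6.84 RPKM, *Trp63* at 55.5 ± 19.5 RPKM and *Trp73* at 2.73 ± 1.32 RPKM (SD, n = 3). *Trp53* and *Trp63* levels per length therefore overlapped in MaSC/basal cells, while in LP *Trp53* was at 34.6 ± 5.43 RPKM and *Trp63* at 0.554 ± 0.132 RPKM.

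Of the genes that restrain p53, *Mdm2* followed *Trp53* and *Ccng1* went the other way. *Mdm2* (Entrez 17246, chr10:117688875-117710758), whose product targets p53 for degradation and which is itself a p53 target, was counted at 174, 156 and 199.5 CPM in the MaSC/basal libraries, 128, 152 and 137 CPM in those of LP, and 107, 122 and 122 CPM in those of ML. No MaSC/basal library overlapped a luminal one, although MaSC/basal replicate 2 and LP replicate 2 lay close together. The difference from ML was a log2 fold change of 0.59 (SE 0.13, edgeR adjusted p = 0.00339). Over LP it was 0.34 (SE 0.13, edgeR adjusted p = 0.0483), a call that was lost in 11 of 17 alternative fits, among them the fit with library batch as a replicate block (0.33, edgeR adjusted p = 0.0662). *Ccng1* (Entrez 12450, chr11:40748552-40755309), which encodes cyclin G1, a feedback regulator that acts through Mdm2, was counted at 60.0, 58.6 and 56.5 CPM in the MaSC/basal libraries, 102, 112 and 108 CPM in those of LP, and 109, 106 and 139 CPM in those of ML. All luminal libraries were above all MaSC/basal libraries, and the MaSC/basal libraries were closer together, relative to their mean, than for any other gene of the set, at 58.4 ± 1.75 CPM (SD, n = 3). *Ccng1* was lower in MaSC/basal than in LP by a log2 fold change of -0.88 (SE 0.13, edgeR adjusted p = 2.3e-04) and than in ML by -1.01 (SE 0.13, edgeR adjusted p = 8.1e-05).

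*Cdkn1a* (Entrez 12575, chr17:29090979-29100722), which encodes the cyclin-dependent kinase inhibitor p21, was the most abundant of the 10 genes per length in each sorted population, at 165 ± 26.3 RPKM for MaSC/basal, 171 ± 14.4 RPKM for LP and 130.1 ± 6.66 RPKM for ML (SD, n = 3). It was counted at 309, 395 and 298 CPM in the MaSC/basal libraries, 359, 314 and 369 CPM in those of LP, and 267, 275 and 249 CPM in those of ML. MaSC/basal and LP libraries overlapped, and all ML libraries were under both. The log2 fold change of MaSC/basal over LP was -0.06 (SE 0.15, edgeR adjusted p = 0.766). Neither the difference from ML of MaSC/basal (0.34, SE 0.15, edgeR adjusted p = 0.0685) nor that of LP (0.40, SE 0.15, edgeR adjusted p = 0.0639) passed the test, but both passed with DESeq2 (adjusted p = 0.0303 and 0.0189).

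The apoptosis genes did not move as a group. *Bbc3* (Entrez 170770, chr7:16308398-16318334), which encodes the BH3-only protein Puma, was counted at 34.5, 24.0 and 25.7 CPM in the MaSC/basal libraries, 20.4, 10.7 and 12.2 CPM in those of LP, and 23.0, 18.3 and 13.8 CPM in those of ML. MaSC/basal libraries were above all luminal ones, and in each population the batch 1 library was the highest. Over LP the log2 fold change was 0.96 (SE 0.28, edgeR adjusted p = 0.0136), and without MaSC/basal replicate 1 it did not pass (edgeR adjusted p = 0.0560), as was also so without LP replicate 2 or LP replicate 3. Over ML it was 0.61 (SE 0.28, edgeR adjusted p = 0.0823), and it passed with library batch as a replicate block (0.56, edgeR adjusted p = 0.0189). *Bax* (Entrez 12028, chr7:45461695-45466903), the effector that permeabilises the outer mitochondrial membrane, was counted at 37.2, 28.8 and 22.5 CPM in the MaSC/basal libraries, 32.6, 29.2 and 34.7 CPM in those of LP, and 52.0, 42.0 and 47.6 CPM in those of ML. ML libraries were above all others, and MaSC/basal and LP overlapped (log2 fold change -0.12, SE 0.18, edgeR adjusted p = 0.588). *Bax* was lower in MaSC/basal than in ML by -0.68 (SE 0.18, edgeR adjusted p = 0.00920) and in LP than in ML by -0.55 (SE 0.18, edgeR adjusted p = 0.0435).

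*Phlda3* and *Eda2r* showed the widest contrasts of the 7 targets between MaSC/basal and luminal cells, in opposite directions. *Phlda3* (Entrez 27280, chr1:135766085-135769134), which encodes an inhibitor of Akt signalling, was counted at 122, 113 and 131 CPM in the MaSC/basal libraries, 12.6, 10.5 and 10.9 CPM in those of LP, and 17.6, 12.9 and 18.8 CPM in those of ML. The lowest MaSC/basal library was several times the highest luminal one. The log2 fold change was 3.43 over LP (SE 0.17, edgeR adjusted p = 3.5e-07) and 2.90 over ML (SE 0.17, edgeR adjusted p = 5.3e-07), and LP was lower than ML by -0.53 (SE 0.16, edgeR adjusted p = 0.0312). *Eda2r* (Entrez 245527, chrX:97333837-97377234), a receptor of the tumour necrosis factor receptor family that binds ectodysplasin A2, was the lowest target. It was counted at 1.80, 1.16 and 2.11 CPM in the MaSC/basal libraries (106, 58 and 112 reads), 5.43, 4.90 and 6.51 CPM in those of LP, and 10.1, 8.04 and 16.8 CPM in those of ML. The populations did not overlap and were ordered MaSC/basal, LP and ML from low to high. Log2 fold changes were -1.73 between MaSC/basal and LP (SE 0.32, edgeR adjusted p = 0.00113), -2.78 between MaSC/basal and ML (SE 0.33, edgeR adjusted p = 5.0e-05) and -1.05 between LP and ML (SE 0.31, edgeR adjusted p = 0.0279).

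**Figure D2:**
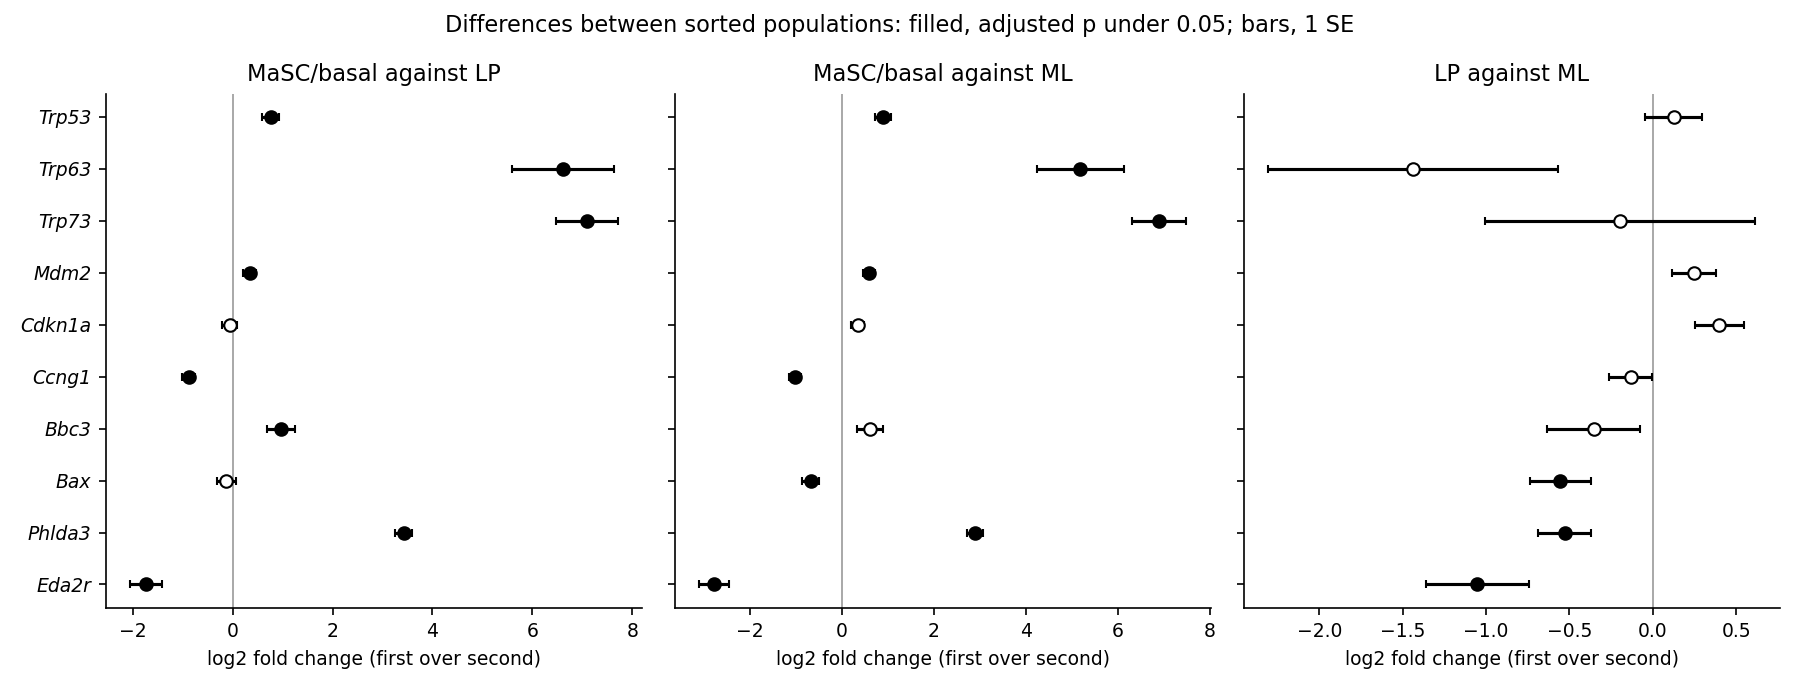
Log2 fold changes of the 10 genes in the 3 pairwise comparisons of sorted populations, with bars of 1 SE, filled where the edgeR adjusted p is under 0.05. The horizontal scales differ between panels, and *Phlda3* (3.43 and 2.90 over LP and ML) and *Eda2r* (-1.73 and -2.78) lie on opposite sides of 0.

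Counted together, 8 of the 10 genes passed the test between MaSC/basal and LP, where 57.3% of all genes tested did. Of these, 6 were higher in MaSC/basal (29.3% of all genes) and 2 were higher in LP (28.0%). Against ML, 8 genes passed (58.5% of all genes), 5 higher in MaSC/basal (28.9%) and 3 higher in ML (29.7%). Between LP and ML 3 genes passed (31.6% of all genes), *Bax*, *Phlda3* and *Eda2r*, all higher in ML (17.4%) and none in LP (14.2%). Among all genes called there, 44.9% were higher in LP, a share that was 29.2% without TMM scaling, under which the 3 genes were still called. These counts are to be read against that background, in which a large share of all genes were called in each direction. The median log2 fold change of the 10 genes was 0.55, 0.60 and -0.28 in the 3 comparisons, and that of all genes was -0.01 in each. For every called gene of the 10 the libraries of the 2 populations did not overlap. The same direction within each batch follows from this and is no further check on batch. How many of all called genes also showed no overlap was not counted, so the lack of overlap is not read as a trait of these genes. The LP and ML count was the least settled: no gene passed without ML replicate 1, LP replicate 2 or ML replicate 3, and 1 gene passed without LP replicate 1 (*Phlda3*) or LP replicate 3 (*Eda2r*).

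The wider list of 44 other p53 targets was divided in every comparison. Between MaSC/basal and LP, 11 were higher in MaSC/basal, 10 were higher in LP and 23 did not pass, so that 47.7% were called, beside 57.3% of all genes. *Ak1*, an adenylate kinase (log2 fold change 4.28), *Perp*, a desmosome-associated apoptosis effector (2.93), and *Ckap2*, a spindle protein (2.87), were highest on the MaSC/basal side. *Lif*, a cytokine of the interleukin 6 family (-4.44), *Trp53inp1*, a stress-induced autophagy and apoptosis factor (-4.03), and *Plk3*, a stress-responsive kinase (-1.42), were lowest. Between MaSC/basal and ML 12 were higher, 11 lower and 21 did not pass (52.3% called, beside 58.5% of all genes), led by *Dram1*, a lysosomal autophagy regulator (3.96), *Ak1* (3.27) and *Ckap2* (3.08), and on the other side *Trp53inp1* (-4.83), *Lif* (-2.83) and the growth arrest gene *Gadd45a* (-2.18). Between LP and ML 9 were higher in LP, led by *Dram1* (1.60), the death receptor gene *Fas* (1.40) and *Steap3* (1.32). A further 10 were higher in ML, led by *Tigar*, a regulator of glycolysis (-1.65), *Zmat3* (-1.64) and the translesion polymerase gene *Polk* (-1.15), and 25 did not pass (43.2% called, beside 31.6% of all genes).

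Of 23 genes whose products control p53, 8 passed in each comparison with MaSC/basal (34.8%, beside 57.3% and 58.5% of all genes) and 6 passed between LP and ML (26.1%, beside 31.6%). *Chek1* and *Chek2*, the checkpoint kinases, were the 2 that were higher in MaSC/basal than in LP (log2 fold change 1.14 and 0.77), and both were also higher than in ML (1.52 and 1.85, with *Rbbp6* at 1.07). The p53-binding relative *Mdm4* (-1.07), *Ppp1r13b* (-0.89) and the acetyltransferase gene *Kat5* (-0.82) were lower in MaSC/basal than in LP. The kinase gene *Hipk2* was lower in MaSC/basal than in ML (-2.01) and in LP than in ML (-1.28). *Cdkn2a*, the Ink4a and Arf locus, was lower in MaSC/basal than in ML (-1.72), with at most 3.42 CPM in the sorted cells. That highest value was from ML replicate 3, beside 1.13 and 0.77 CPM in ML replicates 1 and 2. *Kat5* was also lower in MaSC/basal than in ML (-0.47). Between LP and ML, *Chek2* (1.08), *Trp53bp2* (0.95) and the deacetylase gene *Sirt1* (0.85) led on the LP side. Of 12 genes described as targets of p63, 10 were higher in MaSC/basal than in LP (29.3% of all genes) and none was lower. *Krt5* (7.87), *Krt14* (7.81) and *Col17a1* (6.74) led, where the keratins also serve as basal markers. Over ML all 12 were called, 10 higher (28.9% of all genes) and 2 lower (29.7%), the latter including the growth factor receptor gene *Fgfr2* (-2.02). Between LP and ML only *Fgfr2* (-2.04), *Itga3* (-0.91) and *Dst* (-0.84) were called, all higher in ML. Cell cycle genes that p53 is known to repress through p21 and the DREAM complex were all higher in MaSC/basal, 12 of 12 over both LP (median log2 fold change 3.01) and ML (2.74).

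The MaSC/basal library whose name contains p53 was compared with MaSC/basal replicates 2 and 3. It is 1 library against 2, so the comparison has no test, and the name, the batch and the kit version cannot be told apart. None of the 10 genes lay past 1.5-fold of the mean of the others, a distance passed by 9.30% of all genes (4.02% higher and 5.28% lower). *Trp53* itself was 0.09 above that mean on the log2 scale, while MaSC/basal replicates 2 and 3, both of batch 2, differed from each other by 0.33. *Mdm2* (-0.02), *Ccng1* (0.06) and *Phlda3* (0.00) were as close, *Cdkn1a* was at -0.15, and *Trp63* (0.07) and *Eda2r* (0.20) lay between the other 2 libraries, which were themselves 1.05 and 0.84 apart. The largest differences were those of *Bax* (0.55), *Trp73* (0.54) and *Bbc3* (0.47). For *Trp73* the gap between replicates 2 and 3 was larger still (1.60).

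Replicate 1 lay above both other libraries for *Ccng1*, *Bbc3* and *Bax*, between them for 7 genes and below both for none. Over all genes it was above both for 24.7% and below both for 30.7%. For *Bbc3* and *Bax* the luminal libraries of batch 1 were also above those of batch 2, by 0.92 and 0.16 in LP and by 0.33 and 0.31 in ML, while *Ccng1* differed by -0.13 in LP and by 0.03 in ML. The median absolute difference was 0.12 for the 10 genes and 0.19 for all genes. Among the 44 other targets 1 lay past 1.5-fold, beside 9.30% of all genes. It was the spindle-associated gene *Psrc1* (0.77), which also differed between the batch 1 and batch 2 libraries of LP (0.62) and ML (0.75). The next largest were *Btg2* (0.49) and *Gtse1* (0.48) above, and *Trp53inp1* (-0.32), *Dram1* (-0.31) and *Lif* (-0.27) below. None of the 23 regulators passed, with *Chek1* (0.56), *Rpl5* (0.54) and *Rpl11* (0.49) highest and *Rbbp6* (-0.41), *Ep300* (-0.34) and *Crebbp* (-0.32) lowest. Of the p63 targets 1 of 12 passed, *Dst* (-0.76). The cell cycle list had 7 of 12 genes past 1.5-fold higher, all 12 above 0 and a median of 0.62, beside a median of 0.52 between replicates 2 and 3. Basal markers had 0 of 6 genes above 0 and a median of -0.52, beside 0.26 between replicates 2 and 3, and summed to 15984 CPM in replicate 1 against 22579 and 19118 CPM. Luminal markers had 0 of 5 genes above 0 (median -0.24), and fibroblast markers had a median of -0.54. Their part in the values of the 10 genes was not tested.

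**Figure D3:**
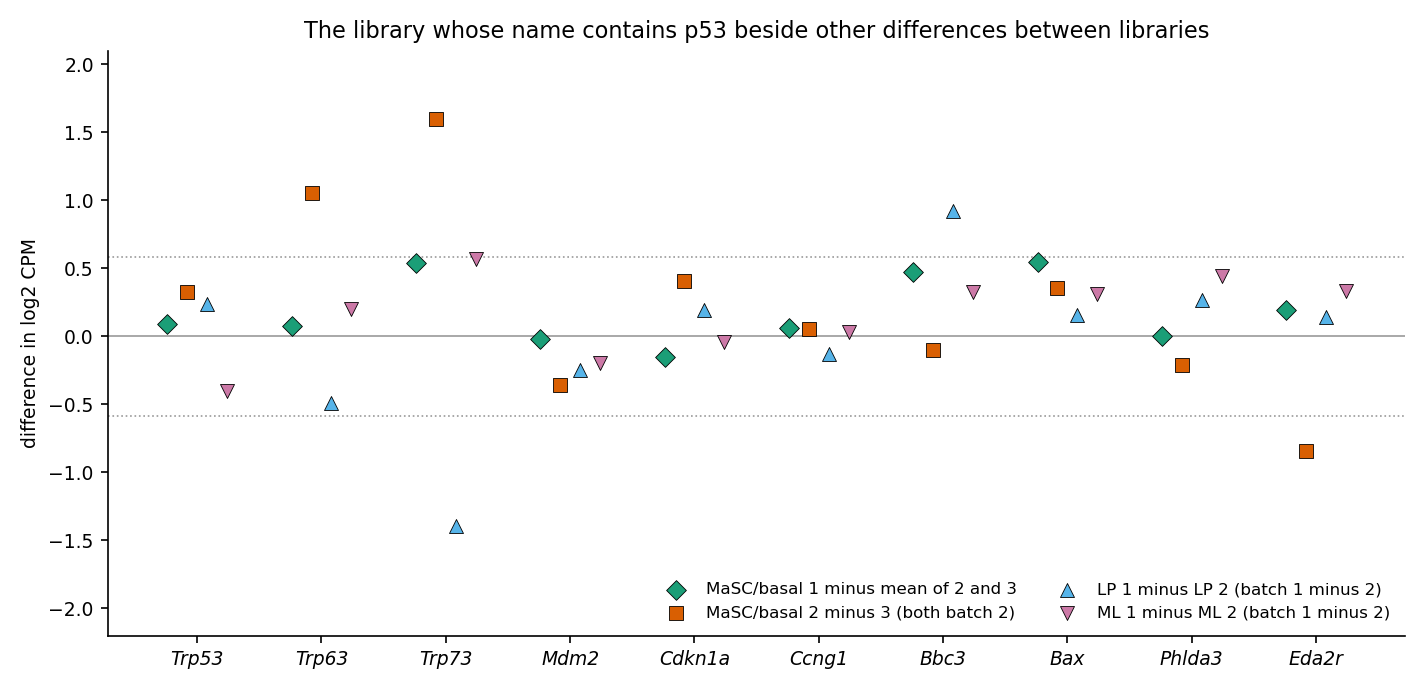
Differences in log2 CPM for each gene: MaSC/basal replicate 1, the library whose name contains p53, minus the mean of replicates 2 and 3 (diamonds), replicate 2 minus replicate 3 (squares), and batch 1 minus batch 2 for LP and ML (triangles). All diamonds lie inside the dotted lines at 1.5-fold, the farthest being *Bax* at 0.55, while *Trp73* reaches 1.60 between replicates 2 and 3.

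The Comma Dβ line held *Trp53* at 145 CPM, above all 9 libraries of sorted cells, and held 3 of the targets below all of them. The share of all genes that lay outside the range of the sorted libraries was not counted, so these positions have no background beside them. *Cdkn1a* was counted at 15.2 CPM (448 reads), where the lowest sorted library had 249 CPM. It was 21.7-fold lower than the MaSC/basal mean, the largest difference of the set. *Bbc3* at 8.02 CPM and *Mdm2* at 95.2 CPM were also under every sorted library, 3.44-fold and 1.84-fold lower than the MaSC/basal mean. The other targets did not share this: *Ccng1* (87.5 CPM) and *Bax* (48.1 CPM) were higher than in MaSC/basal by 0.58 and 0.74 on the log2 scale, *Phlda3* (65.3 CPM) was 1.86-fold lower, and *Eda2r* (6.49 CPM) was 3.88-fold higher. *Ccng1*, *Bax*, *Phlda3* and *Eda2r* were within the range of the sorted libraries. Whether the elements in the start windows bear on these levels was not tested. In the family, *Trp63* (52.4 CPM) and *Trp73* (4.69 CPM) were 6.15-fold and 2.78-fold lower than in MaSC/basal and above all LP and ML libraries.

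In all, 5 of the 10 genes were past 2-fold of the MaSC/basal mean, a distance passed by 41.6% of all genes, 1 higher (16.8% of all genes) and 4 lower (24.8%). With 1 library there is no replicate check, and line, strain, batch and culture cannot be told apart. Of the 44 other targets 10 were past 2-fold higher and 14 lower. *Gtse1* (2.09), *Polh* (2.00) and *Tigar* (1.81) led on the log2 scale above, and *Mgmt* (-3.64), *Ak1* (-3.21) and *Btg2* (-2.78) below. Among the regulators 1 was past 2-fold higher, *Cdkn2a*, at 219.5 CPM against 0.49 ± 0.05 CPM in MaSC/basal (SD, n = 3), a log2 difference of 8.68. The next highest were *Chek2* (0.99) and *Wrap53* (0.92), and 6 regulators were lower, led by *Trp53bp2* (-2.58), *Ppp1r13l* (-1.98) and *Crebbp* (-1.57). Of the p63 targets 10 of 12 were lower, led by *Sfn*, which encodes 14-3-3 sigma (-6.24), *Itga6* (-4.02) and *Col17a1* (-3.70), and none was higher. The cell cycle list was past 2-fold higher for 11 of 12 genes and summed to 2074 CPM, beside 613 to 867 CPM in MaSC/basal.

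Other lists moved with the line. The 6 basal markers summed to 1481 CPM, with *Krt5* at 487 CPM and *Krt14* at 459 CPM, and the 5 luminal markers to 211 CPM, with *Epcam* at 88.0 CPM and *Krt8* at 16.3 CPM, both sums under those of MaSC/basal. The 5 fibroblast markers summed to 2041 CPM, beside 406 to 536 CPM in MaSC/basal, with *Col1a1* at 808 CPM and *Lum* at 0.683 CPM. The 12 genes induced by tissue dissociation were all past 2-fold lower (2465 CPM in sum, beside 7054 to 20376 CPM in MaSC/basal). Their part in the levels of the p53 targets was not tested.

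The mammosphere library, cultured from MaSC/basal cells for a week, showed another pattern. It is 1 library and has no replicate check. The library is of batch 1, whereas MaSC/basal replicates 2 and 3, which enter the MaSC/basal mean, are of batch 2. *Trp53* (51.4 CPM) was 2.12-fold lower than the MaSC/basal mean and just under the lowest sorted library, *Trp63* (103 CPM) was 3.13-fold lower and *Trp73* (4.18 CPM, 186 reads) was 3.11-fold lower. *Cdkn1a* (285 CPM) stayed within 1.16-fold of MaSC/basal and within the range of the sorted libraries, in contrast to its level in Comma Dβ. *Eda2r* (12.4 CPM) was 7.42-fold and *Ccng1* (125 CPM) 2.14-fold higher than in MaSC/basal, both at levels also seen in ML. *Mdm2* (123 CPM), *Bbc3* (14.3 CPM) and *Phlda3* (78.6 CPM) were 1.43-fold, 1.94-fold and 1.55-fold lower, and *Bax* (40.4 CPM) was 1.40-fold higher. Past 2-fold were 5 of the 10 genes, where 39.7% of all genes were, 2 higher (19.6% of all genes) and 3 lower (20.1%).

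Of the 44 other targets 8 were past 2-fold higher and 8 lower in the mammosphere library. Of all genes 19.6% were past 2-fold higher and 20.1% lower, which is also the background for the lists that follow. *Pmaip1*, which encodes the BH3-only protein Noxa (2.42), *Trp53inp1* (1.42) and *Polk* (1.40) led the targets above. *Btg2* (-2.80), *Mgmt* (-2.07) and *Ckap2* (-1.66) led below. Among the regulators 1 was past 2-fold higher and 5 were lower, and *Cdkn2a* (1.53, at 1.51 CPM), *Hipk2* (0.88) and *Mdm4* (0.70) were highest and *Rbbp6* (-1.87), *Trp53bp2* (-1.51) and *Crebbp* (-1.30) lowest. Of the p63 targets 8 of 12 were past 2-fold lower and none higher, led by *Sfn* (-3.18), *Fgfr2* (-2.82) and *Dst* (-2.77). Beside these values, 5 luminal markers summed to 3151 CPM and 6 basal markers to 3390 CPM, and 5 fibroblast markers summed to 1724 CPM, with 4 of 5 past 2-fold higher than MaSC/basal. The cell cycle list summed to 328 CPM, with 7 of 12 genes past 2-fold lower and a median of -1.23. The 4 skeletal muscle markers summed to 63.2 CPM against at most 7.92 CPM in any sorted library, and the genes induced by dissociation summed to 1469 CPM. Their part in the levels of the 10 genes was not tested.

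**Figure D4:**
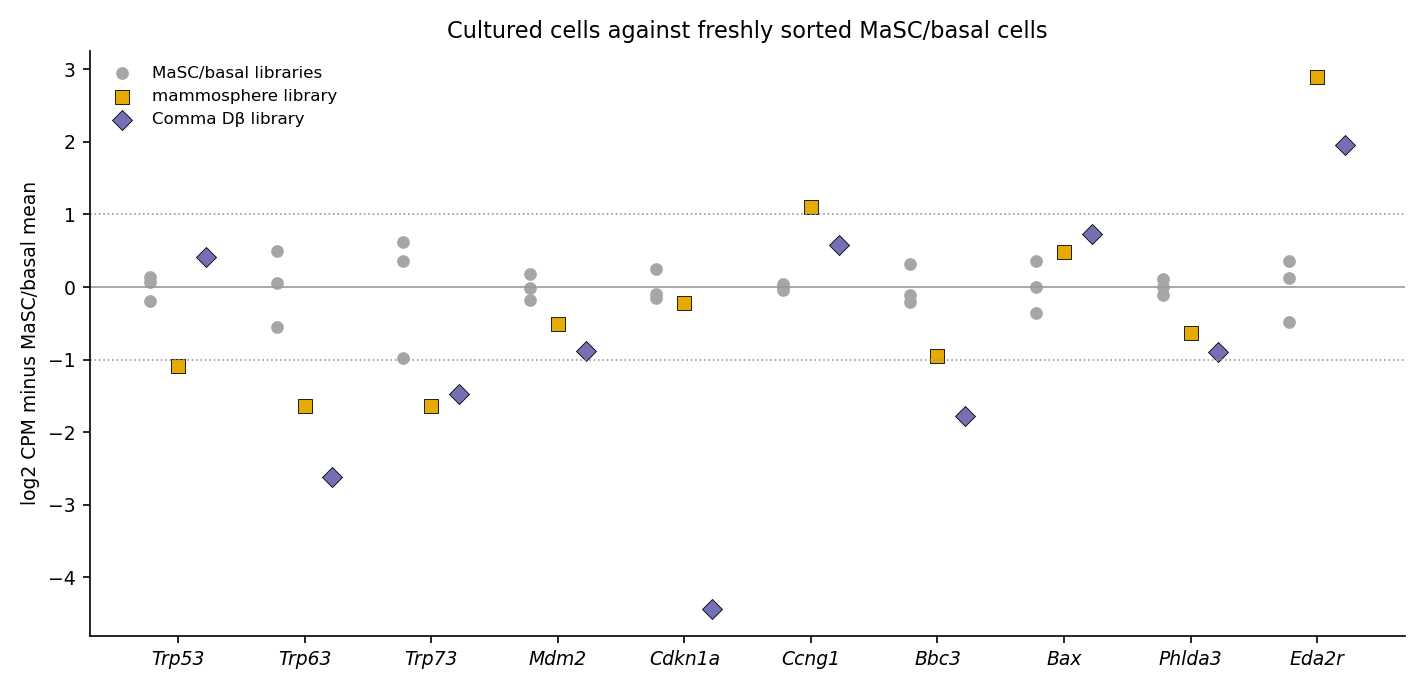
Log2 CPM of each gene minus the mean of the 3 MaSC/basal libraries, for those libraries (circles), the mammosphere library (squares) and the Comma Dβ library (diamonds), with dotted lines at 2-fold. *Cdkn1a* lies at -4.44 in Comma Dβ and at -0.22 in the mammosphere library, and *Eda2r* lies above 2-fold in both (1.96 and 2.89).

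As a description of likeness, Pearson's r of log2 CPM was taken over the 9 libraries of sorted cells, which share sort gates and batches and of which 3 are MaSC/basal, so r mainly follows the contrast of basal and luminal cells. Among the 10 genes r was highest between *Trp73* and *Phlda3* (0.97), *Trp63* and *Trp73* (0.96), and *Trp63* and *Phlda3* (0.95), and it was 0.94 between *Ccng1* and *Eda2r*. *Trp53* and *Eda2r* had r of -0.94, and r of *Cdkn1a* with the other genes ran from -0.62 (*Eda2r*) and -0.58 (*Bax*) to 0.45 (*Trp53*). Over all genes tested, *Trp53* was most like *Dctd* (0.993), *Dclre1b* (0.988) and *Icam1* (0.985). *Trp63* was most like *Mycn*, *4932441J04Rik* and a gene without a symbol (0.994, 0.994 and 0.993), *Trp73* most like *Sstr1* (0.996), *Mypop* (0.994) and *Sema3b* (0.994), and *Phlda3* most like *Htr1d* (0.996), *Ptpn13* (0.993) and *Adgrg1* (0.993). For *Mdm2* the nearest genes were *Zfp326*, *Dync2h1* and *Golga7*, for *Ccng1* *Cert1*, *Clcn5* and *Trim6*, and for *Bax* *Pigyl*, *Smim20* and *Imp3*. *Cdkn1a* had the weakest nearest neighbours, *Setdb1* (0.960), *Dnajb9* (0.952) and *Tram2* (0.945), followed by *Bbc3* with *Zfp771* (0.962), *Gm15645* (0.958) and *Rnaseh2c* (0.953). *Eda2r* was nearest to *Pof1b* (0.992), *Plekhd1* (0.989) and *Tagap* (0.987).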

How the data were processed

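The authors mapped the single-end reads to mm10 by Rsubread, counted them per Entrez gene by featureCounts, and deposited raw read counts with a length for each gene, 1 table per library. How multi-mapping reads and strand were treated is not given in the sources used here. Symbols came from RefSeq (25275 of 27179 genes matched). Groups and batches follow the labels, and replicates were numbered in accession order. The libraries of a population are described as independent samples.

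The counts were tested in edgeR 4.0.16 under R 4.3.3, by quasi-likelihood F tests on all 11 libraries after TMM scaling. The design had 5 means, 1 per sample type, so that the spread came from the 9 libraries of sorted cells. Testing was limited to the 15422 genes above 0.5 CPM in 3 or more libraries. Adjusted p-values are Benjamini-Hochberg values over all genes tested, called under 0.05, and SE is the fold change divided by the square root of F. Log2 CPM used a prior count of 2. With 1 library in a group only differences are given, counted past 2-fold, or past 1.5-fold for MaSC/basal replicate 1. The test was checked on simulated data for MaSC/basal against LP (15129 genes): all 200 genes changed by 2 on the log2 scale were recovered, with 9 false calls. Those counts had the same dispersion for every gene and no batch effect. Smaller changes were not simulated, so the check does not cover calls of smaller fold changes. Alternatives used limma 3.58.1 (voom, as in the study) and DESeq2 1.42.0. The batch number in the labels marks a shared batch. The fit behind the reported calls had no batch term, and the pairing by batch entered only the alternative with library batch as replicate block. Over 9 pairs of libraries that share a batch, the deviations from the group means correlated with a median of 0.240 (-0.118 to 0.526), beside -0.103 for 18 pairs from different batches.

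The 10 genes and the lists of other p53 targets, regulators, p63 targets, cell cycle, dissociation and marker genes were chosen with earlier results of these data known. Of the lists of targets, regulators and p63 targets, the text names, in each direction, the 3 largest called fold changes that reached 1 CPM on the higher side and showed no overlap between libraries. For single libraries it names the 3 largest differences, and for likeness the 3 genes with the highest r. Other genes are named beside marker sums. The values of 1 gene of the p63 target list are not reported here.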

Additional observations from a re-analysis of the deposited data

How the results depend on the processing

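The comparisons were repeated under 17 alternatives (DESeq2 size factors, no scaling, stricter or no filter, DESeq2, limma voom, the 9 sorted libraries alone, library batch as replicate block, and each replicate left out). Of 510 values of single genes, 464 kept direction and side of the threshold, 30 lost and 7 gained a call, and 9 turned. The turned values were never called: *Cdkn1a* over LP (0.088 without scaling, -0.19 to 0.032 with replicates left out, above 0 without MaSC/basal replicate 1 or 3), *Bax* over LP (0.030 without scaling, -0.32 to 0.054 with replicates left out, above 0 without MaSC/basal replicate 3), and between LP and ML *Trp53* (-0.052 without scaling), *Trp63* (-1.96 to 0.75, above 0 without ML replicate 3) and *Trp73* (-1.40 to 0.17, above 0 without LP replicate 1 or ML replicate 3). With replicates left out, the genes called between LP and ML numbered 0 to 3, the other p53 targets called 10 to 22 and the regulators 4 to 6, and DESeq2 called 10 regulators. Beside the lost calls given above, *Phlda3* between LP and ML was lost with voom (adjusted p = 0.0815) and *Bax* without the filter and without MaSC/basal replicate 2. The replicate block, which uses the pairing by batch, gave 7 called genes between MaSC/basal and LP, 9 between MaSC/basal and ML and 3 between LP and ML, and of the calls of the 10 genes changed only those of *Mdm2* and *Bbc3* given above. Without scaling, 2 genes (*Trp73* and *Bax*) lay past 1.5-fold in MaSC/basal replicate 1, and with a 1.5-fold limit 8 genes differed in Comma Dβ. Without scaling the median log2 fold change of all genes was 0.14 between MaSC/basal and LP and -0.19 between LP and ML (both -0.01 with TMM), and the share of called genes that were higher in LP than in ML fell from 44.9% to 29.2%. The cause of these changes was not tested. Depth limits *Trp73* in LP and ML, with 11 and 15 reads in all, and *Cdkn2a*.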
